A study of Mus musculus with 9 samples.

Results

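Oxidative phosphorylation is carried out by 5 multisubunit complexes of the inner mitochondrial membrane. Complex I (NADH dehydrogenase) and complex II (succinate dehydrogenase) pass electrons to ubiquinone, complex III (cytochrome bc1) passes them to cytochrome c, complex IV (cytochrome c oxidase) reduces oxygen, and complex V is the ATP synthase. Their subunits come from separate genomes: mitochondrial DNA is transcribed as long polycistronic RNAs that are cut into individual messages, while the other subunits are made from nuclear genes whose promoters are known to be bound by NRF1 and by ETS-family factors such as GABP. Complex II is the only one of them made wholly from nuclear genes. The subunits were followed here in Hepa 1-6, a mouse hepatoma cell line, after loss of Usp5 (a deubiquitinase) or Ythdf1 (a reader of m6A in messenger RNA). The rows were chosen by symbol from the protein-coding genes of a table of 53647 genes. The symbols were those of the Nduf families a, b, c, s and v without the assembly factors, Sdha to Sdhd, Uqcr, Cox4 to Cox8 with an isoform letter from a to c, Atp5 and the mt- genes. The choice gave 100 genes, of which 87 are nuclear and 13 mitochondrially encoded. By complex the nuclear genes are 38 of complex I, 4 of complex II, 8 of complex III, 19 of complex IV and 18 of complex V. Ndufa4 and Ndufa4l2, which were first described in complex I, were placed with complex IV.

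RNA was sequenced from 3 Usp5 knockout, 3 Ythdf1 knockout and 3 control samples, all of the same line grown in DMEM with serum and antibiotics. The Usp5 knockout carried a lentiviral CRISPR construct with a Usp5 guide, the Ythdf1 knockout a CRISPR/Cas9/EGFP plasmid with a Ythdf1 guide, and the controls a control guide whose vector is not given in the labels. The knockouts were selected as single-cell clones by immunoblot, and the labels do not say whether the 3 samples of a group came from separate clones or cultures. P-values therefore set the difference between groups against the spread among the samples of a group. That spread may be technical only, and the p-values may then be too small. A knockout cannot be told apart from the clone that carries it.

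The mitochondrial messages need to be seen at the level of sequence before their counts can be read, and 3 stretches are shown for that reason. The first is the whole coding sequence of mt-Atp8, which encodes subunit 8 of complex V. Its last 43 bases, in capitals, are also the start of mt-Atp6, because these genes overlap in different reading frames on the mitochondrial chromosome. The other 2 are the ends of mt-Co2 (subunit 2 of complex IV) and of Gm28661, a pseudogene on chromosome 1, aligned from position 645 of each; capitals mark the only bases of mt-Co2 that the pseudogene does not also have. All are from GENCODE M21 transcripts (GRCm38), on the sense strand.
mt-Atp8: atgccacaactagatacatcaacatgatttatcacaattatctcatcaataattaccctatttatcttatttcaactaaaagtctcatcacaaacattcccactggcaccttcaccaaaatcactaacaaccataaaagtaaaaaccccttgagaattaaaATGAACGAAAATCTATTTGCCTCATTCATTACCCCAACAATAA
mt-Co2: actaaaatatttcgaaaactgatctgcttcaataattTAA
Gm28661: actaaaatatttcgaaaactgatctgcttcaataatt

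Gm28661 matched mt-Co2 at all 681 of its bases with 0 mismatches, Gm10925 matched mt-Atp6 at 678 bases with 0 mismatches, and Gm28437 matched mt-Co3 at 783 bases with 0 mismatches; all 3 lie on chromosome 1. They are nuclear insertions of mitochondrial DNA, and a read from inside such a stretch carries no base that says which genome it came from. The deposited estimated counts put most reads on the nuclear copies. Gm28661 held 96.3% to 99.4% of the counts of mt-Co2 and its copies together across the 9 libraries, and Gm28437 held 85.0% to 97.2% of those of mt-Co3. Gm10925 held 49.2% of the counts of mt-Atp6 in control library 1 and 97.0% to 98.9% in the other 8. Of the 13 mitochondrially encoded genes, 7 had a pseudogene that shared at least 25% of their 31-base words, and these rows are given below both alone and summed with their copies (9 pseudogene rows in all). What share of those counts came from nuclear transcripts was not tested.

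Each library held between 24760877 and 42989715 estimated counts. Usp5 mRNA averaged 115 ± 6.58 CPM (counts scaled to library size with TMM) in Usp5 knockout samples and 214 ± 26.5 CPM in control samples, and Ythdf1 mRNA averaged 48.3 ± 2.22 CPM in Ythdf1 knockout samples and 189 ± 7.06 CPM in control samples (SD, n = 3 each). The 10 hepatocyte and hepatoma markers summed to between 2311 and 3297 TPM (counts scaled by length and library) in every library. Most of that sum came from Alb, Afp, Trf and Hnf4a. Ttr was at most 1.81 TPM, Apoa1 was lower still, and Apoh and Serpina1a were at 0 in at least 1 library. The leukocyte, endothelial and stellate or fibroblast markers summed to at most 2.56 TPM. The 4 bile duct markers summed to between 221 and 236 TPM in Usp5 knockout samples, between 132 and 138 TPM in Ythdf1 knockout samples and between 122 and 133 TPM in control samples, and their part in the results below was not tested. Over the genes tested, and not the subunits alone, control library 3 stood apart from the other control libraries. Its chi-square per degree of freedom was 123.6 and 142.5 against them, and they gave 14.8 against each other. The Usp5 knockout libraries gave 44.6 to 61.1 among themselves and the Ythdf1 knockout libraries 3.52 to 26.8. Results that rest on control library 3 are given with and without it. In bulk samples a change in RNA per cell and a change in the make-up of the cells cannot be told apart.

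The 13 mitochondrially encoded messages made up 3.63%, 6.09% and 3.98% of all counts in the Usp5 knockout libraries, 3.87%, 4.92% and 3.48% in the Ythdf1 knockout libraries, and 2.31%, 2.29% and 5.86% in the control libraries. With the nuclear copies added these shares were 5.03%, 8.33% and 5.44% in the Usp5 knockout, 5.51%, 7.00% and 4.95% in the Ythdf1 knockout, and 2.95%, 3.14% and 8.01% in the controls. Both knockouts lay above control libraries 1 and 2 throughout, and control library 3 was the second highest of all 9 libraries, so the groups overlapped. Usp5 knockout library 2 was the highest. With copies summed, each mitochondrially encoded gene of control library 3 stood at 1.46 (mt-Nd3) to 4.16 (mt-Atp8) times the mean of the other controls. On gene rows alone this did not hold for mt-Nd3, mt-Atp6 and mt-Co3, which were not the highest of the controls there. The nuclear subunits together made up 1.00%, 0.834% and 0.809% of counts in the Usp5 knockout, 1.25%, 1.07% and 1.25% in the Ythdf1 knockout, and 1.12%, 1.10% and 0.824% in the controls, where library 3 was the lowest.

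Tested as single rows in edgeR's quasi-likelihood fit over all genes, 1 of 13 mitochondrially encoded genes was called higher in the Usp5 knockout than in control (mt-Atp8) and 0 lower, against 9.96% of all 13661 genes tested called higher and 9.80% called lower. In the Ythdf1 knockout 0 of 13 were called either way, where 23.7% of all genes were called higher and 22.8% lower. With each row summed with its copies, 2 of 13 were called higher in the Usp5 knockout (mt-Atp8 and mt-Nd4l; 9.99% of all genes in that fit) and 2 higher in the Ythdf1 knockout (mt-Co3 and mt-Nd3; 23.7% of all genes). Without control library 3, 12 of the 13 summed genes were called higher in the Usp5 knockout (16.3% of all genes) and 10 of 13 in the Ythdf1 knockout (24.5% of all genes). In the direct comparison of summed rows with all libraries, 2 were called higher (mt-Atp8 and mt-Nd4l; 23.4% of all genes) and 1 lower (mt-Co3; 25.2% of all genes) in the Usp5 knockout than in the Ythdf1 knockout. The calls in the mitochondrial genome as a group therefore turn on 1 control library. Without that library the missing gene in the Usp5 knockout was mt-Nd3 (log2 fold change 0.70, edgeR adjusted p = 0.0638), and those in the Ythdf1 knockout were mt-Cytb (0.77, adjusted p = 0.0512), mt-Nd4l and mt-Atp8.

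mt-Co3, which encodes subunit 3 of complex IV, read differently with and without its copy. Summed with its copy it had 5766, 6807 and 5717 CPM in Ythdf1 knockout samples, against 2049, 2167 and 4466 CPM in control samples. All 3 knockout libraries lay above all 3 controls, library 3 included. The log2 fold change was 1.08 ± 0.26 (SE; edgeR adjusted p = 0.0072), and it was called in all 14 alternative fits of the summed rows, with log2 fold changes of 0.88 to 1.53 and adjusted p of 1.77e-05 to 0.0309. The row of mt-Co3 alone, which holds only a small part of these counts, had 164, 255 and 278 CPM in Ythdf1 knockout samples and 308, 230 and 296 CPM in control samples (log2 fold change -0.26, adjusted p = 0.555). Usp5 knockout samples had 2570, 3334 and 3307 CPM of the summed row, within the range of the controls. Set directly against the Ythdf1 knockout, the Usp5 knockout was lower by a log2 fold change of -0.99 ± 0.26 (adjusted p = 0.0107), called in all 14 alternatives.

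**Figure D1:**
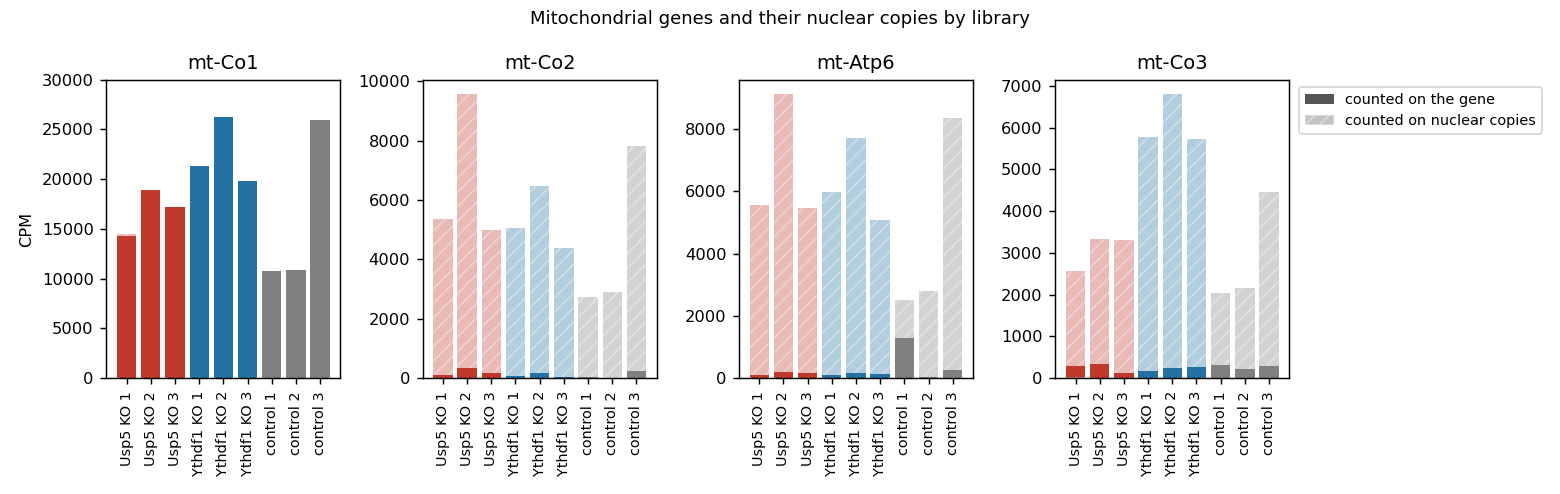
CPM of 4 mitochondrial genes in each library (Usp5 knockout red, Ythdf1 knockout blue, control grey), solid for counts on the gene and hatched for counts on its nuclear copies. For mt-Co2, mt-Atp6 and mt-Co3 the hatched part is most of the bar except for mt-Atp6 in control library 1, and summed mt-Co3 is higher in all 3 Ythdf1 knockout libraries (5717 to 6807 CPM) than in any control (at most 4466 CPM).

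The make-up of the mitochondrial RNA pool, which does not depend on its total size, also differed for mt-Co3. Summed with copies it was 9.96%, 9.32% and 11.0% of the mitochondrially encoded counts in the Ythdf1 knockout and 7.47%, 7.48% and 5.59% in the controls, with 5.06%, 3.88% and 6.21% in the Usp5 knockout. Its ratio to mt-Co1, the catalytic subunit of complex IV and the message with the most counts of these, was 0.270, 0.260 and 0.289 in the Ythdf1 knockout and 0.190, 0.199 and 0.172 in the controls. Usp5 knockout libraries had ratios of 0.177, 0.176 and 0.192, which overlapped the controls. mt-Co1 itself was 28.6%, 22.0% and 32.3% of the pool in the Usp5 knockout, 36.9%, 35.9% and 38.1% in the Ythdf1 knockout and 39.4%, 37.5% and 32.4% in the controls. All 3 Usp5 knockout libraries were below every control, by a margin that was small for library 3. mt-Nd2, a membrane subunit of complex I, took 8.43%, 11.3% and 9.60% of the pool in the Usp5 knockout, 5.32%, 6.11% and 5.20% in the Ythdf1 knockout and 6.05%, 5.73% and 8.43% in the controls; control library 3 reached the lowest Usp5 knockout library. These shares are given as descriptions, with no test.

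**Figure D2:**
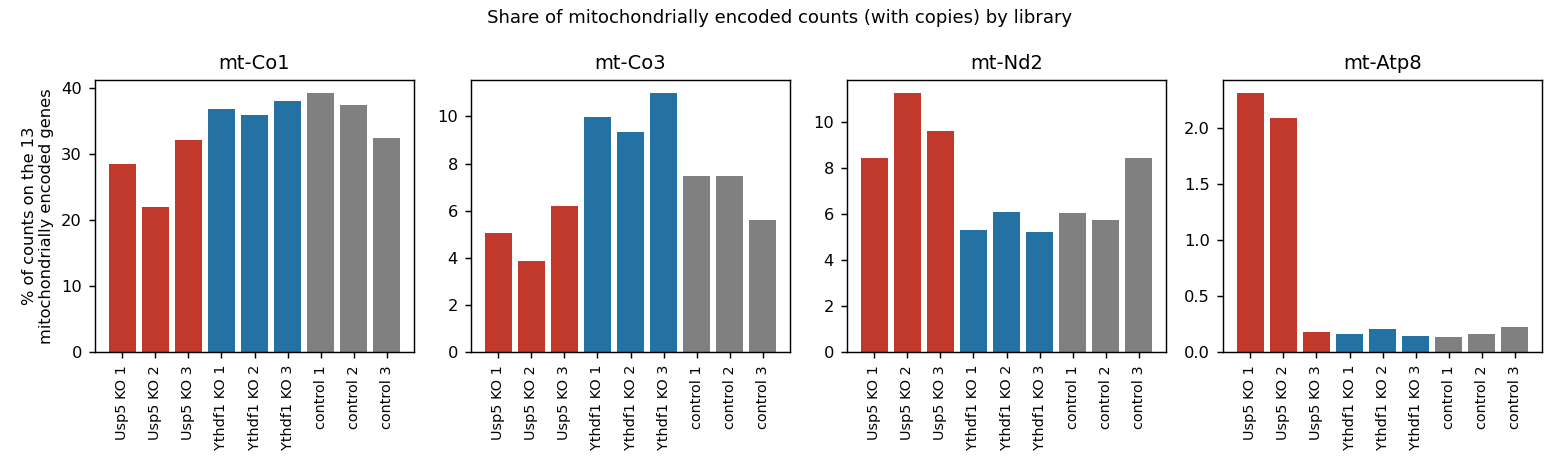
Share of the counts on the 13 mitochondrially encoded genes, in percent and with copies, taken by mt-Co1, mt-Co3, mt-Nd2 and mt-Atp8 in each library (Usp5 knockout red, Ythdf1 knockout blue, control grey; each panel has its own axis from 0). mt-Co3 is highest in the 3 Ythdf1 knockout libraries (9.32% to 11.0%), and mt-Atp8 stands out in Usp5 knockout libraries 1 and 2 (2.31% and 2.08%).

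mt-Atp8 had 1174, 1789 and 96.8 CPM in Usp5 knockout samples, 94.9, 154 and 74.5 CPM in Ythdf1 knockout samples, and 37.1, 47.9 and 177 CPM in control samples. Usp5 knockout libraries 1 and 2 were high and the third lay within the range of the controls. The log2 fold change in the Usp5 knockout was 3.56 ± 0.92 against control (edgeR adjusted p = 0.0221) and 3.24 ± 0.90 against the Ythdf1 knockout (adjusted p = 0.0137). The direct call was lost without Ythdf1 knockout library 1 (adjusted p = 0.0518) or 3 (adjusted p = 0.0539). The call against control was lost without Usp5 knockout library 2 (log2 fold change 2.87, adjusted p = 0.0787), without control library 1 (3.19, adjusted p = 0.0744) and without control library 2 (3.26, adjusted p = 0.0939). Added to mt-Atp6 and its copy, whose transcript it shares, the sum was 6745, 10920 and 5559 CPM in the Usp5 knockout, 6084, 7882 and 5168 CPM in the Ythdf1 knockout and 2546, 2855 and 8531 CPM in the controls. On the shared transcript the groups overlapped. How counts in the 43 shared bases were divided between these rows was not tested.

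The other mitochondrial messages of complex I were mt-Nd1 to mt-Nd6 and mt-Nd4l, which encode the proton-pumping membrane arm. mt-Nd1 had 5660, 10541 and 5788 CPM in the Usp5 knockout, 5387, 6814 and 4388 CPM in the Ythdf1 knockout and 2561, 2738 and 8991 CPM in control, and mt-Nd2, mt-Nd4 and mt-Nd5 had the same order of libraries within the controls. mt-Nd6, the only one of these genes on the light strand, had 464, 848 and 286 CPM in the Usp5 knockout, 310, 368 and 294 CPM in the Ythdf1 knockout and 125, 131 and 394 CPM in control (log2 fold change in the Usp5 knockout 1.30 ± 0.47, edgeR adjusted p = 0.0762). None of these 5 passed in a comparison with all libraries. mt-Nd4l summed with its copy had 343, 569 and 52.5 CPM in the Usp5 knockout, 88.8, 93.0 and 74.6 CPM in the Ythdf1 knockout and 47.2, 65.9 and 87.2 CPM in control, again high in Usp5 knockout libraries 1 and 2 and not in library 3. Its log2 fold change was 2.27 ± 0.62 against control (adjusted p = 0.0275) and 1.91 ± 0.61 against the Ythdf1 knockout (adjusted p = 0.0251). Each call held in 9 of 14 alternatives. Without Usp5 knockout library 2 the log2 fold changes were 1.56 (adjusted p = 0.118) and 1.24 (adjusted p = 0.114). mt-Nd3 summed with its copy had 360, 330 and 366 CPM in the Ythdf1 knockout and 166, 183 and 255 CPM in control (0.81 ± 0.26, adjusted p = 0.0255). The call held in 10 of 14 alternatives, and leaving out Ythdf1 knockout library 1 or 3, or control library 1 or 2, ended it (adjusted p of 0.0733 to 0.0820). mt-Nd3 in the Usp5 knockout had 297, 385 and 167 CPM. Its row alone was called lower in the Usp5 knockout than in the Ythdf1 knockout (log2 fold change -1.39, adjusted p = 0.0242), which the summed row was not (-0.32, adjusted p = 0.329).

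In complex III mt-Cytb, cytochrome b, had 4955, 9939 and 4755 CPM in the Usp5 knockout, 3941, 5174 and 3427 CPM in the Ythdf1 knockout and 2374, 2516 and 7330 CPM in control (Usp5 knockout log2 fold change 0.69 ± 0.43, edgeR adjusted p = 0.294). In complex IV mt-Co1 had 14513, 18912 and 17180 CPM with its copies in the Usp5 knockout, 21333, 26215 and 19811 CPM in the Ythdf1 knockout and 10803, 10868 and 25910 CPM in control. Summed mt-Co2 had 5375, 9578 and 5001 CPM in the Usp5 knockout, 5066, 6467 and 4380 CPM in the Ythdf1 knockout and 2732, 2912 and 7833 CPM in control. mt-Atp6, subunit a of complex V, had 5571, 9131 and 5462 CPM with its copy in the Usp5 knockout, 5989, 7728 and 5094 CPM in the Ythdf1 knockout and 2509, 2807 and 8354 CPM in control. For these 4 genes every knockout library lay above control libraries 1 and 2, and control library 3 lay above 5 of the 6 knockout libraries. None was called with all libraries. The row of mt-Atp6 alone had 112, 200 and 165 CPM in the Usp5 knockout, 114, 172 and 142 CPM in the Ythdf1 knockout and 1275, 31.8 and 248 CPM in control. Its log2 fold changes were -1.71 ± 0.89 in the Usp5 knockout (adjusted p = 0.205) and -1.86 ± 0.89 in the Ythdf1 knockout (adjusted p = 0.112), against 0.56 and 0.46 for the summed row (adjusted p = 0.373 and 0.383). The 22 mitochondrial tRNA genes were all listed at 0. The ribosomal RNA mt-Rnr2, no subunit but part of the same transcription unit as mt-Nd1, had 261, 381 and 399 CPM in the Usp5 knockout, 146, 206 and 123 CPM in the Ythdf1 knockout and 90.4, 123 and 258 CPM in control. It was called higher in the Usp5 knockout against control (1.14 ± 0.35, adjusted p = 0.0432) and against the Ythdf1 knockout (1.13 ± 0.35, adjusted p = 0.0217). The other ribosomal RNA, mt-Rnr1, was called in neither comparison (log2 fold changes 0.12 and -0.12, edgeR adjusted p = 0.838 and 0.786).

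Set against the nuclear subunits of the same complex, the mitochondrial messages were in excess in complexes I, III and IV in every library. The values for complexes I and III that follow are from gene rows alone. The ratio of summed TPM, mitochondrially encoded over nuclear, was 5.27, 12.6 and 8.32 for complex I in the Usp5 knockout, 4.23, 6.46 and 3.70 in the Ythdf1 knockout and 2.58, 2.96 and 11.5 in control. For complex III, with mt-Cytb alone on top, it was 4.19, 10.9 and 7.14 in the Usp5 knockout, 2.92, 4.74 and 2.56 in the Ythdf1 knockout and 2.27, 2.45 and 9.73 in control. Both ratios were above control libraries 1 and 2 in all 6 knockout libraries and were highest in Usp5 knockout library 2 and control library 3. For complex IV with copies it was 8.41, 15.4 and 13.5 in the Usp5 knockout, 8.08, 12.4 and 7.79 in the Ythdf1 knockout and 5.77, 6.26 and 17.6 in control.

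Complex V depended on the copies. From the rows of mt-Atp6 and mt-Atp8 alone its ratio was 1.23, 2.20 and 0.184 in the Usp5 knockout, 0.0996, 0.186 and 0.0906 in the Ythdf1 knockout and 0.407, 0.0573 and 0.311 in control, below 1 in 7 of 9 libraries. With the copy of mt-Atp6 added it was 2.89, 5.39 and 2.18 in the Usp5 knockout, 1.46, 2.23 and 1.24 in the Ythdf1 knockout and 0.766, 0.887 and 3.32 in control, the lowest of the 4 complexes in each library. Over the summed subunits of complexes I, III, IV and V, the mean log2 ratio from gene rows was higher by 0.81 in the Usp5 knockout than in control and by 0.01 in the Ythdf1 knockout than in control; without control library 3 these differences were 1.40 and 0.60. Between the knockouts the ratio from gene rows was higher by 0.80 in the Usp5 knockout than in the Ythdf1 knockout. Complex by complex, again from gene rows, it was higher by 0.82 (I), 1.07 (III), 0.31 (IV) and 2.74 (V, or 1.03 with copies). Without Usp5 knockout library 2 the direct difference was 0.50 over the 4 complexes and 0.51 for complex I. For complex IV it lay between 0.17 (without Usp5 knockout library 3) and 0.56 (without Usp5 knockout library 1), and was moved as well by Usp5 knockout library 2 and Ythdf1 knockout libraries 2 and 3.

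**Figure D3:**
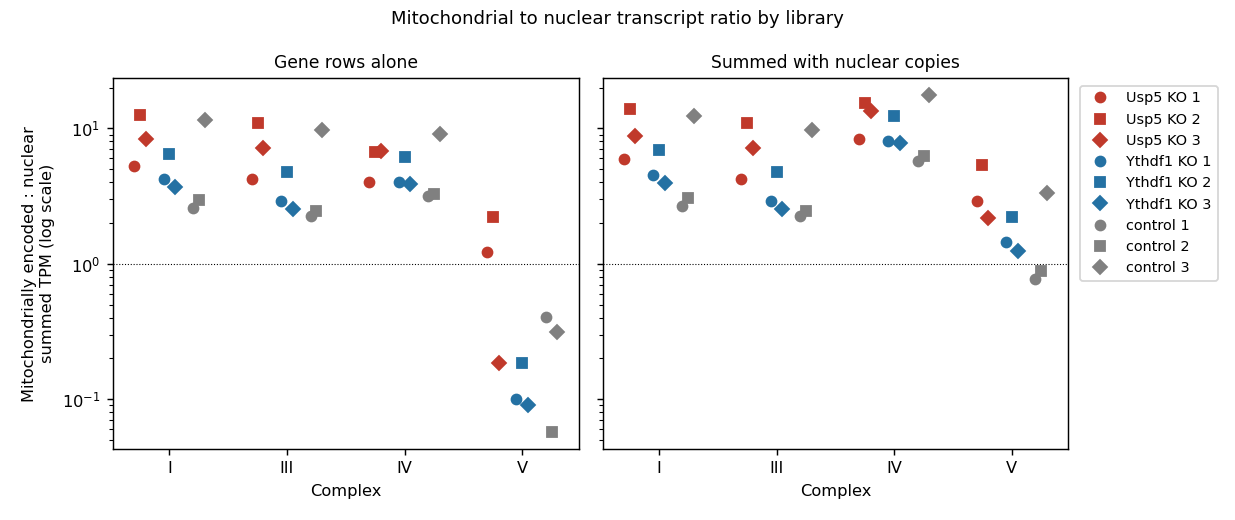
Ratio of summed TPM of mitochondrially encoded to nuclear subunits (log axis) for complexes I, III, IV and V, from gene rows alone (left) and with nuclear copies summed (right); 1 point per library, symbols for replicates 1 to 3. In each complex control library 3 (grey diamond) lies far above the other controls except in complex V from gene rows alone, where control library 1 (0.407) is the highest of them.

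Of the 87 nuclear subunits 77 passed the filter on low counts. Of those, 28 were called higher and 1 lower in the Ythdf1 knockout than in control, against 23.7% and 22.8% of all genes tested, with a median log2 fold change of 0.37 (0.02 over all genes tested). In the Usp5 knockout 2 were called higher and 8 lower, against 9.96% and 9.80% of all genes, with a median of -0.00 (-0.01 over all genes). In the direct comparison 0 were called higher and 32 lower in the Usp5 knockout than in the Ythdf1 knockout, against 23.3% and 25.2% of all genes, with a median of -0.38 (0.00 over all genes). The 3 comparisons share samples. In the Ythdf1 knockout complex I had 12 of 37 tested genes called higher and 1 lower, complex II 1 of 4 higher, complex III 2 of 8, complex IV 5 of 11 and complex V 8 of 17.

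**Figure D4:**
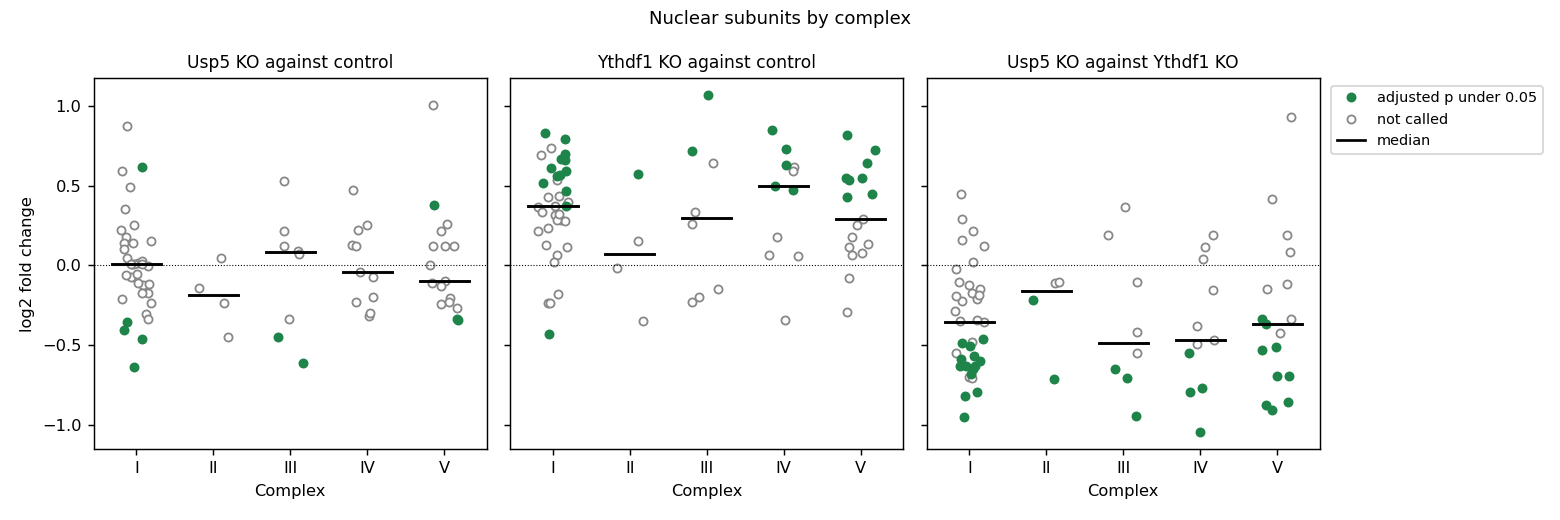
Log2 fold change of the 77 tested nuclear subunits by complex in the 3 comparisons (Usp5 knockout against control, Ythdf1 knockout against control, Usp5 knockout against Ythdf1 knockout); filled points passed an adjusted p under 0.05, bars are medians. Most points lie above 0 in the middle panel (65 of 77) and below 0 in the right panel (62 of 77), and they are spread about 0 in the left panel (38 above).

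In complex I, Ndufb4, an accessory subunit of the membrane arm, had 22.3, 18.6 and 21.3 CPM in Ythdf1 knockout samples and 13.3, 12.9 and 8.69 CPM in control samples, a log2 fold change of 0.83 ± 0.20 (edgeR adjusted p = 0.0072). Ndufa6 had 63.7, 52.9 and 62.2 CPM in Ythdf1 knockout samples and 39.0, 34.0 and 30.3 CPM in control samples (0.79 ± 0.20, adjusted p = 0.0087). All 3 knockout libraries of either gene were above all controls. Ndufs1, the largest iron-sulfur subunit of the core, went the other way and was the only nuclear subunit called lower in both knockouts: 75.2, 78.8 and 92.9 CPM in the Usp5 knockout (-0.40 ± 0.10, adjusted p = 0.0211) and 78.2, 80.9 and 83.7 CPM in the Ythdf1 knockout (-0.43 ± 0.10, adjusted p = 0.0068), against 110, 120 and 96.2 CPM in control. All 6 knockout libraries were below the lowest control. Other complex I genes called higher in the Ythdf1 knockout included Ndufa10, Ndufb8, Ndufc2 and Ndufv2, with log2 fold changes of 0.47 to 0.70.

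In complex II, Sdhb, the iron-sulfur subunit, had 104, 89.3 and 105 CPM in the Ythdf1 knockout and 73.9, 68.0 and 58.1 CPM in control (0.57 ± 0.10, edgeR adjusted p = 0.0013). Sdha, the flavoprotein and the complex II gene with the highest per-length level (156 TPM), had 212, 222 and 221 CPM in the Ythdf1 knockout and 227, 231 and 204 CPM in control (-0.02 ± 0.07, adjusted p = 0.878). In complex III, Uqcrq, a small accessory subunit, had 184, 145 and 195 CPM in the Ythdf1 knockout and 98.6, 90.0 and 60.9 CPM in control, the largest nuclear change in that comparison (1.07 ± 0.27, adjusted p = 0.0092). Uqcrq is also the nuclear complex III gene with the highest per-length level (326 TPM). Usp5 knockout samples had 131, 83.3 and 57.2 CPM, a wider range than that of the controls. Uqcrb was called higher too (0.72 ± 0.19, adjusted p = 0.0120).

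In complex IV, Cox6a1, the form of subunit 6a found in most tissues other than heart and muscle, had 340, 274 and 268 CPM in the Usp5 knockout, 663, 524 and 630 CPM in the Ythdf1 knockout and 364, 318 and 328 CPM in control. It was the highest nuclear complex IV gene per length (1300 TPM) and was called higher in the Ythdf1 knockout against control (0.85 ± 0.12, edgeR adjusted p = 3.56e-04) and lower in the Usp5 knockout against the Ythdf1 knockout (-1.04 ± 0.12, adjusted p = 8.99e-05). Cox6c, a small membrane subunit, had 128, 146 and 123 CPM in the Usp5 knockout, 229, 222 and 224 CPM in the Ythdf1 knockout and 130, 139 and 139 CPM in control (Ythdf1 knockout 0.73 ± 0.08, adjusted p = 8.65e-05). The Ythdf1 knockout libraries of both genes lay clear of the other 6. Ndufa4 (0.47), Cox7a2l (0.63) and Cox8a (0.49) were the other complex IV genes called higher in the Ythdf1 knockout.

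In complex V, Atp5b, the catalytic beta subunit, had the highest per-length level of all nuclear subunits (3930 TPM). It had 1869, 1588 and 1717 CPM in the Usp5 knockout, 2919, 2494 and 2950 CPM in the Ythdf1 knockout and 2237, 2157 and 1727 CPM in control (Ythdf1 knockout 0.45 ± 0.12, edgeR adjusted p = 0.0111). Atp5md, a small membrane subunit of the dimer interface, had 103, 90.2 and 93.8 CPM in the Ythdf1 knockout and 50.9, 50.1 and 62.4 CPM in control (0.82 ± 0.14, adjusted p = 0.0012). Atp5h, subunit d of the stalk that holds the catalytic head still, was the only subunit called in opposite directions: 78.2, 69.7 and 69.9 CPM in the Usp5 knockout (-0.34 ± 0.10, adjusted p = 0.0338) and 144, 119 and 136 CPM in the Ythdf1 knockout (0.53 ± 0.10, adjusted p = 0.0014), against 97.7, 94.7 and 83.0 CPM in control. The 3 groups did not overlap, and directly the Usp5 knockout was lower by -0.87 ± 0.10 on the log2 scale (adjusted p = 6.98e-05). Atp5j2 (subunit f, -0.91) and Atp5mpl (a small proteolipid, -0.86) were also among the 6 largest direct differences of called nuclear subunits, with adjusted p of 5.43e-05 and 0.0032. Atp5d, Atp5g1, Atp5j2, Atp5l and Atp5mpl completed the complex V genes called higher in the Ythdf1 knockout (0.43 to 0.72).

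In the Usp5 knockout the 8 genes called lower were 4 of complex I, 2 of complex III and 2 of complex V, Ndufs1 and Atp5h among them. Uqcrc1, a core subunit of complex III, had 158, 147 and 168 CPM in the Usp5 knockout and 237, 218 and 191 CPM in control (-0.45 ± 0.11, edgeR adjusted p = 0.0154). Uqcrfs1, the Rieske iron-sulfur protein, had 90.3, 82.5 and 104 CPM in the Usp5 knockout and 162, 164 and 96.6 CPM in control (-0.61 ± 0.18, adjusted p = 0.0393). Uqcrc1 was lower in every Usp5 knockout library than in any control, whereas for Uqcrfs1 control library 3 lay within the knockout range. Of complex I, Ndufb2 had 14.4, 12.7 and 11.3 CPM in the Usp5 knockout and 23.9, 21.8 and 13.9 CPM in control, overlapping in control library 3 (-0.64 ± 0.20, adjusted p = 0.0480). Ndufa9, an accessory subunit near the ubiquinone site, had 59.6, 52.6 and 55.0 CPM in the Usp5 knockout and 85.3, 85.3 and 59.9 CPM in control (-0.46 ± 0.14, adjusted p = 0.0384). Ndufb5 of the membrane arm had 31.4, 26.3 and 29.4 CPM against 39.4, 39.0 and 32.8 CPM in control (-0.35 ± 0.11, adjusted p = 0.0428). Atp5pb, subunit b of the stalk, completed the list (-0.34, adjusted p = 0.0208). Ndufv3, an accessory subunit beside the NADH-binding flavoprotein, was called higher, with 53.9, 48.3 and 33.1 CPM in the Usp5 knockout and 27.0, 27.7 and 33.9 CPM in control (0.62 ± 0.16, adjusted p = 0.0236); the third Usp5 knockout library lay below the highest control. Atp5o, the subunit that joins stalk and head, was the other, with 162, 136 and 126 CPM in the Usp5 knockout and 118, 112 and 96.4 CPM in control (0.38 ± 0.11, adjusted p = 0.0375). The counts in this comparison were moved by single libraries: 18 were called lower and 1 higher without control library 3 (15.0% and 16.2% of all genes), 0 lower without control library 1, control library 2 or Usp5 knockout library 2, and 10 higher without Usp5 knockout library 3. In the Ythdf1 knockout the counts were 24 higher and 6 lower without control library 3 (24.5% and 21.7% of all genes), and 17 or 18 higher without Ythdf1 knockout library 1 or 3. Calls over all genes moved as well, from 1494 to 4371 in the Usp5 knockout and from 4848 to 6479 in the Ythdf1 knockout. For libraries other than control library 3, shares of all genes are not reported here. Instability of the subunits cannot be told apart there from a general gain or loss of calls.

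The nuclear subunits have short messages, with a median length of 729 bases against 2419 bases over all genes tested, and 70 of the 77 fall among the 3416 shortest genes. Among those 30.2% of all genes were called higher in the Ythdf1 knockout and 7.93% lower, with a median log2 fold change of 0.24. Among the 3415 longest 15.5% were higher and 39.1% lower, with a median of -0.20. The 3416 shortest genes took 26.5%, 26.4% and 23.1% of counts in the Usp5 knockout, 29.6%, 28.1% and 29.1% in the Ythdf1 knockout and 24.7%, 24.4% and 24.6% in control. With offsets that remove each library's trend on length and GC content, 17 nuclear subunits were called higher and 5 lower in the Ythdf1 knockout, where 22.0% and 20.5% of all genes were, and their median was 0.04. With library sizes alone 20 were higher and 2 lower, with the median of all genes at -0.12 on the log2 scale. Histone genes, whose replication-dependent messages carry no poly(A) tail, also differed: 63 of them summed to between 29.9 and 32.2 CPM in the Usp5 knockout, between 166 and 190 CPM in the Ythdf1 knockout and between 60.0 and 70.2 CPM in control. In all, 0 of 27 tested were called higher and 8 (29.6%) lower in the Usp5 knockout, against 9.96% and 9.80% of all genes. In the Ythdf1 knockout 19 (70.4%) were called higher and 1 (3.7%) lower, against 23.7% and 22.8% of all genes. The part of message length and of poly(A) selection in the nuclear subunits' change was not tested beyond these values.

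**Figure D5:**
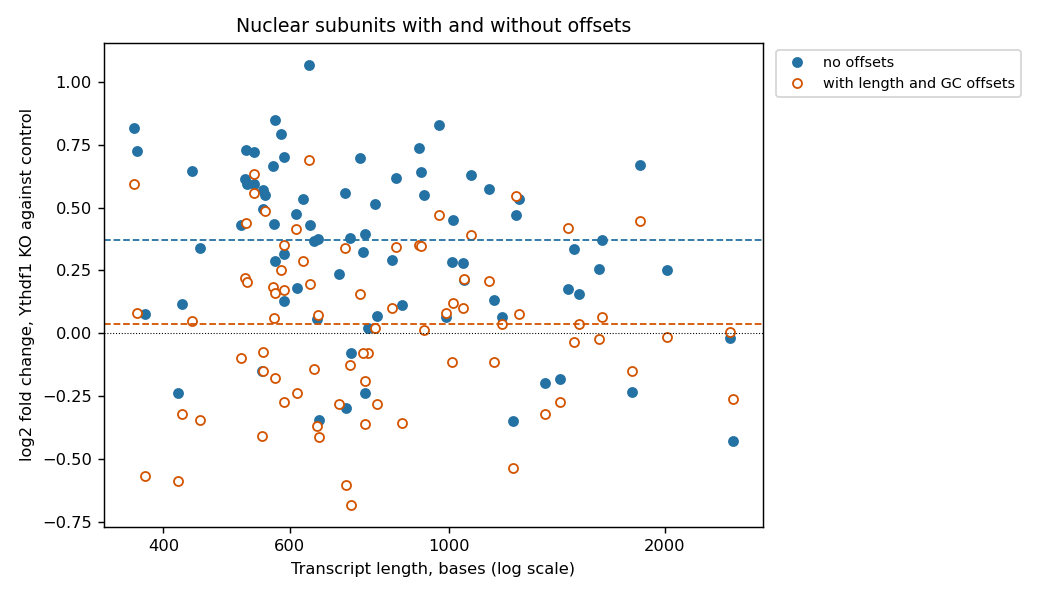
Log2 fold change of the 77 nuclear subunits in the Ythdf1 knockout against control, by message length in bases (log axis), without (filled) and with (open) offsets for each library's length and GC trend; dashed lines are medians. The median is 0.37 without offsets and 0.04 with them.

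Several complex IV and V subunits exist as isoforms for particular tissues, and the isoforms of heart, muscle and testis were close to 0 in all 9 libraries. Cox6a2 had 2, 10 and 0 counts in all in the Usp5 knockout, Ythdf1 knockout and control groups, Cox7a1 had 9, 9 and 14, Cox6b2 had 2, 0 and 0, Cox7b2 had 2, 1 and 0, and Cox8b and Cox8c had 0 throughout. Ndufa4l2, known as a hypoxia-induced relative of Ndufa4, had 0 counts in the Usp5 knockout, 12 in the Ythdf1 knockout and 4 in control, against a mean of 435 TPM for Ndufa4 over all libraries. Cox6b1 (237 TPM), Cox7a2 (30.3 TPM), Cox7a2l (101 TPM), Cox7b (150 TPM) and Cox8a (871 TPM) were the expressed forms. The 3 genes for the same ring subunit c of complex V were all expressed: Atp5g3 at 455, 312 and 465 TPM, Atp5g1 at 256, 334 and 299 TPM and Atp5g2 at 220, 221 and 283 TPM (means of the Usp5 knockout, the Ythdf1 knockout and control). Atp5g1 was called higher in the Ythdf1 knockout (0.43 ± 0.11, edgeR adjusted p = 0.0093), while Atp5g3 gave -0.29 ± 0.33 (adjusted p = 0.484). The remaining rows that were not tested were Ndufb11b, Cox5b-ps and a second identifier for Atp5o.

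Promoters are shown for 2 genes that were called higher in the Ythdf1 knockout and 1 that was called lower in the Usp5 knockout. Sites for shared factors are a feature known from many nuclear subunit genes. The promoters shown are examples and not typical ones. Each holds more than 1 NRF1 match, whereas 17 of the 66 tested subunits with a promoter had any. Each is 300 bases of RefSeq sequence (GRCm38.p6), from 250 bases before to 50 after the start of transcription, on the gene's strand. Capitals mark matches on either strand, overlaps allowed, to the NRF1 palindrome, ETS (CCGGAAG), YY1 (AAGATGGC) or Sp1 (GGGCGG). They are Cox6a1 at chr5:115348909-115349208 (minus strand), Ndufb4 at chr16:37654319-37654618 (minus strand) and Uqcrc1 at chr9:108936398-108936697 (plus strand).
Cox6a1: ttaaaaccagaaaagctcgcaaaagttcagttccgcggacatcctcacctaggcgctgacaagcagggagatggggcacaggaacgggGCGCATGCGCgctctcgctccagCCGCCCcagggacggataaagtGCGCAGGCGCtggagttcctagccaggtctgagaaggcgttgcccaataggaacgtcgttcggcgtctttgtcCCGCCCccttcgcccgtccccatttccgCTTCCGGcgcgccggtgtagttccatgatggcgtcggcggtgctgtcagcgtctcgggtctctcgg
Ndufb4: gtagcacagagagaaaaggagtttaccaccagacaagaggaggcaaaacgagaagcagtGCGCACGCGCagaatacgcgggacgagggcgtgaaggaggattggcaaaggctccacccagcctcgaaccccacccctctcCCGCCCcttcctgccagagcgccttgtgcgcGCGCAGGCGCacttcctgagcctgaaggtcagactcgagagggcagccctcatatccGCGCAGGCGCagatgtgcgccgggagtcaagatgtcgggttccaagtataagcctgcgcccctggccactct
Uqcrc1: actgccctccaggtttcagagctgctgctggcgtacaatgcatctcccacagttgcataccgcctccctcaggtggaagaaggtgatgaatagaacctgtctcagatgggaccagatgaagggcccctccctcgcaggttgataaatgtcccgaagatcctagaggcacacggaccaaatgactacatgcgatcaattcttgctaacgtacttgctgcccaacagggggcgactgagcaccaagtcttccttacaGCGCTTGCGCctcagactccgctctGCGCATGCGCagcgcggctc

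Of the 77 tested nuclear subunits 66 had a promoter in the RefSeq table. An NRF1 match was present in 25.8% of these and in 5.19% of the 27025 genes of the table, an ETS match in 25.8% and 9.93%, a YY1 match in 15.2% and 3.19%, and an Sp1 match in 40.9% and 38.2%. Among the subunits called higher in the Ythdf1 knockout, 6 of 23 with a promoter had an NRF1 match, against 11 of 43 of the others. For the ETS motif these were 7 of 23 and 10 of 43, for YY1 2 of 23 and 8 of 43, and for Sp1 11 of 23 and 16 of 43. A match describes the letters in the window and no binding was measured. Among the factors themselves, Gabpa, the DNA-binding part of GABP, was called lower in the Ythdf1 knockout (-0.68 ± 0.13, edgeR adjusted p = 0.0024); in the Usp5 knockout its log2 fold change was 0.35 ± 0.13 (adjusted p = 0.0917).

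Genes around the complexes were followed as lists. Cox4i1, the main form of complex IV subunit 4, whose symbol lies outside the rule, had 344, 287 and 234 CPM in the Usp5 knockout, 607, 483 and 611 CPM in the Ythdf1 knockout and 391, 379 and 253 CPM in control (Ythdf1 knockout 0.73 ± 0.19, edgeR adjusted p = 0.0086). Cycs, cytochrome c, was also higher in the Ythdf1 knockout (0.61 ± 0.12, adjusted p = 0.0029), and neither was called in the Usp5 knockout. Of 55 assembly factors 12 (21.8%) were called higher and 5 (9.09%) lower in the Ythdf1 knockout, against 23.7% and 22.8% of all genes, so the higher share was near that of all genes. Among them were Coa4 (1.08), Sdhaf1 (0.85) and Sco2 (0.79) higher and Ndufaf7 (-0.64), Acad9 (-0.51) and Cox15 (-0.47) lower. The Usp5 knockout had 0 called higher and 1 (1.82%) lower, against 9.96% and 9.80% of all genes. That gene was Taco1 (-0.52, adjusted p = 0.0432), known as an activator of mt-Co1 translation.

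Of 21 genes for processing and stability of mitochondrial RNA, 4 (19.0%) were called higher and 9 (42.9%) lower in the Ythdf1 knockout, against 23.7% and 22.8% of all genes, and the list's median there was -0.25 on the log2 scale. Lower calls there rose with message length. They were 16.5% of genes of 1533 to 2419 bases, 27.8% of those of 2420 to 3618 bases and 39.1% of the 3415 longest. Of the genes named below as lower there, Lrpprc, Pnpt1 and Trmt10c have 4365, 2739 and 3002 bases. Ptcd3 and Grsf1 have 2345 and 2400 bases. The part of message length in this list was not tested. The Usp5 knockout had 0 higher and 3 (14.3%) lower, against 9.96% and 9.80% of all genes. Lrpprc, which holds mitochondrial messages stable, was called lower in the Usp5 knockout (-0.36 ± 0.08, edgeR adjusted p = 0.0102) and in the Ythdf1 knockout (-0.33 ± 0.08, adjusted p = 0.00585), as was Ptcd3 (-0.42 and -0.55). Mtpap, the mitochondrial poly(A) polymerase, was called lower in the Usp5 knockout (-0.44, adjusted p = 0.0179). In the Ythdf1 knockout Pnpt1 (-0.88), Trmt10c (-0.68) and Grsf1 (-0.63) were lower, and Hsd17b10 (0.60), Fastk (0.55) and Elac2 (0.54) were higher. Of 22 genes for maintenance and transcription of mitochondrial DNA, 4 (18.2%) were called higher and 6 (27.3%) lower in the Ythdf1 knockout, and 0 higher and 1 (4.55%) lower in the Usp5 knockout. The shares in the Ythdf1 knockout were near those of all genes. Polrmt, the mitochondrial RNA polymerase, was called higher in the Ythdf1 knockout (0.50, adjusted p = 6.40e-04), and Twnk, the helicase (-0.53), and Ssbp1, the single-strand binding protein (-0.67), were lower.

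Of 13 tested nuclear regulators of respiratory genes, 2 (15.4%) were called higher and 0 lower in the Usp5 knockout, against 9.96% and 9.80% of all genes. The Ythdf1 knockout had 3 (23.1%) higher and 2 (15.4%) lower, against 23.7% and 22.8%. With so few genes these counts are a description of the genes called. In the Usp5 knockout these were Esrrg and Hcfc1 (log2 fold change 0.42, edgeR adjusted p = 0.0260). In the Ythdf1 knockout Esrrg, Ppargc1b (0.56) and Ppard (0.40) were higher, and Gabpa (-0.68) and Gabpb2 (-0.45) were lower. Esrrg, a nuclear receptor of oxidative genes, had 6.46, 7.00 and 7.09 CPM in the Usp5 knockout, 2.41, 3.03 and 2.49 CPM in the Ythdf1 knockout and 1.36, 1.28 and 1.93 CPM in control, with log2 fold changes of 2.19 ± 0.18 and 0.82 ± 0.19 against control (edgeR adjusted p = 2.64e-05 and 0.00532). The 3 groups did not overlap. Of 19 enzymes of the tricarboxylic acid cycle and its entry, 0 were called higher and 5 (26.3%) lower in the Usp5 knockout, against 9.96% and 9.80% of all genes. The Ythdf1 knockout had 6 (31.6%) higher and 5 (26.3%) lower, against 23.7% and 22.8%. Pcx, pyruvate carboxylase, was lower in the Usp5 knockout (-0.95) and higher in the Ythdf1 knockout (1.16), while Idh3a, a subunit of isocitrate dehydrogenase, was lower in both (-0.64 and -0.92).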

How the data were processed

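Total RNA from the 9 samples was DNase-treated and made into libraries with an mRNA-seq kit, per the labels' protocols. The deposited values are estimated counts per gene, written by the authors as whole numbers in 1 table together with a gene length and an effective length. Per the submitters' processing notes, fastp 0.23.2, STAR 2.7.10a, Salmon 1.9.0 and the build GRCm39 were used, in roles that are not listed. The annotation release and strand setting are not given in the sources used here. Since estimated counts divide reads among similar transcripts, rows of near-identical genes are uncertain.

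Samples were grouped by title. The members, lists and tests were chosen with earlier results of these data known. The test was the quasi-likelihood test of edgeR 4.0.16 under R 4.3.3 (scaling by TMM, filterByExpr, glmQLFit and glmQLFTest, group as the only term, all 9 samples), with Benjamini-Hochberg adjustment over all 13661 genes tested; genes were called at an adjusted p under 0.05. The fit was checked on simulated counts. CPM use TMM-scaled library sizes, and TPM use the deposited lengths. Pseudogenes sharing at least 25% of the 31-base words of a mitochondrial gene in GENCODE M21 were summed with it. Alternatives, given in the closing section, were DESeq2 1.42.0, limma-voom 3.58.1, other scalings, filters, thresholds and offsets, a replicate block, and leaving out each sample. Text names every mitochondrially encoded gene, up to 6 called nuclear genes per direction and comparison by size of change with at least 1 CPM, the highest nuclear gene per length of each complex (that of complex I is not reported here), isoform pairs, and up to 3 called genes per list and direction; Sdhb, Uqcrb, Twnk and the called subunits listed only by their range were added after their values were seen. Ratios, shares and list counts are descriptions with no test.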

Additional observations from a re-analysis of the deposited data

How the results depend on the processing

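The nuclear counts in the Usp5 knockout against control (2 higher and 8 lower) were the least stable. Higher calls were 1 with library sizes alone, 6 by DESeq2, 7 with no filter, 0 with only both groups compared, 0 at an adjusted p under 0.01 and 1 with a log2 change of at least 0.5; lower calls were 1 with only both groups, 5 with the replicate block, 13 with length and GC offsets, 0 at the stricter p and 2 with the minimum change. In the Ythdf1 knockout (28 and 1) higher calls were 17 with offsets and 17 at the stricter p, and lower calls 2 with library sizes alone, 3 with no filter, 5 with offsets and 0 with the minimum change. Directly (0 and 32) higher calls were 1 with library sizes alone, 1 with no filter and 7 with offsets. Leaving out single libraries gave 0 to 10 higher and 0 to 18 lower in the Usp5 knockout, 17 to 38 and 1 to 6 in the Ythdf1 knockout, and 0 to 4 and 23 to 40 directly.

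For mitochondrial rows alone, higher calls in the Usp5 knockout were 5 with no filter, 0 with only both groups, 0 with the replicate block, 2 with offsets, 2 with copies summed and 0 at the stricter p, and lower calls 1 with no filter. In the Ythdf1 knockout higher calls were 1 with no filter, with only both groups and with offsets, and 2 with copies summed; lower calls were 1 with no filter. Directly, higher calls were 0 by limma-voom, 6 with no filter, 2 with only both groups, 2 with copies summed and 0 at the stricter p, and lower calls 2 with only both groups, 0 with offsets and 0 at the stricter p. Leaving out single libraries gave 0 to 9 higher and 0 to 1 lower in the Usp5 knockout, 0 to 7 and 0 to 1 in the Ythdf1 knockout, and 0 to 2 and 0 to 2 directly. With copies summed, a choice made after seeing the data, the range was 0 to 12 higher in the Usp5 knockout, 1 to 10 in the Ythdf1 knockout, and 0 to 3 higher and 1 to 2 lower directly; the replicate block gave 0 higher in the Usp5 knockout and 1 higher directly, and offsets gave 2 lower directly. mt-Co3 changed direction when its copy was summed, to 1.08 in the Ythdf1 knockout and -0.99 directly. mt-Atp6 in both knockouts and mt-Nd3 in the Usp5 knockout (-0.50 alone, 0.49 summed) also changed sign, with no call either way.

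Over all genes, 2700, 6350 and 6627 were called in the Usp5 knockout, the Ythdf1 knockout and the direct comparison. In the Usp5 knockout 1756 were called with only both groups, 1305 at the stricter p and 1675 with the minimum change; in the Ythdf1 knockout 4085 with the minimum change; directly 4363 and 4342. Leaving out single libraries gave 1494 to 4371, 4848 to 6479 and 5002 to 7648. The direct log2 ratio over complexes I, III, IV and V (0.80) was 1.74 from medians over members. Same-numbered libraries of different groups correlated at -0.257 to 0.298 in their deviations, and differently numbered ones at -0.333 to 0.345. The numbers thus showed no sign of pairing the samples, which 3 libraries per group cannot exclude. The cause of these shifts was not tested.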
